A study of Mus musculus with 12 samples.

Results

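The 6 genes of the muscle ubiquitin system described here were followed across all 12 libraries of the series: the ubiquitin ligase genes Trim63, Trim54, Trim55, Fbxo32 and Asb2, and the polyubiquitin gene Ubb. They were chosen by name, as atrophy-linked ligases of muscle and polyubiquitin genes, and make up 6 of the 55401 gene identifiers in the count files. All 6 were found, and 6 of 6 passed the filter on low counts that left 6596 genes for testing. The libraries came from adult mouse hearts that were either wild type (WT) or Rpl3l-/- (KO), the latter lacking the striated-muscle paralog of the ribosomal protein gene Rpl3. From each genotype, 3 libraries held total poly(A) RNA of heart homogenates (Input) and 3 held poly(A) RNA pulled down with ribosomes through an HA tag (IP), so there were 4 groups of 3 libraries. The labels call the triplicates biological. They give neither sex nor strain, nor which cells carry the tag, nor whether an Input and an IP library with the same number share a heart. Hearts for IP were treated with cycloheximide, and IP RNA was purified on columns where Input RNA was extracted with TRIzol, so fraction and purification cannot be told apart.

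Ubiquitin is joined to proteins by a cascade of an activating enzyme (E1), a conjugating enzyme (E2) and a ligase (E3), and the ligase picks the substrate. Trim63, Trim54 and Trim55 encode the muscle RING-finger proteins MuRF1, MuRF3 and MuRF2, related ligases that sit at the sarcomere and act on muscle proteins. Fbxo32 encodes atrogin-1, an F-box protein that brings substrates to a Skp1 and cullin 1 ligase, and Asb2 encodes a SOCS-box protein that brings filamins to a cullin 5 ligase. Trim63 and Fbxo32 are widely used as markers of muscle wasting. Ubb encodes a head-to-tail chain of ubiquitin that is cut into single molecules, whereas Rps27a encodes ubiquitin fused to a ribosomal protein.

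In build GRCm38 the ligase genes are protein coding and lie apart from each other. Trim63 (ENSMUSG00000028834) spans chr4:134315120-134329629 on the plus strand, Trim54 (ENSMUSG00000062077) chr5:31116712-31137630 on the plus strand and Trim55 (ENSMUSG00000060913) chr3:19644474-19692421 on the plus strand. Fbxo32 (ENSMUSG00000022358) spans chr15:58175879-58214932 and Asb2 (ENSMUSG00000021200) chr12:103321142-103356001, both on the minus strand. Ubb (ENSMUSG00000019505) is a short gene at chr11:62551171-62553213 on the plus strand. Although the MuRF genes are paralogs, their transcripts differ enough for long reads to tell them apart. The longest stretch that the annotated Trim63 and Trim54 transcripts share is 28 coding bases, shown here because no pair of MuRF genes shares a longer run:
Trim63 and Trim54 shared run: aacatcattgacatctacaagcaggagt
The longest runs shared by Trim63 with Trim55 and by Trim54 with Trim55 were 17 and 16 bases. Of all 31-base stretches of the Asb2 transcript, 0.0% occurred in another annotated gene, and the shares were 0.539% for Trim63, 0.273% for Trim55 and 4.46% for Fbxo32. The share was 21.5% for Trim54, through its antisense gene Gm15469, which held 0 counts.

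Ubb is the exception. Its coding sequence of 918 bases holds 4 tandem units of 228 bases (76 codons), which are 95.6% to 99.1% identical to the first unit. A near match to Ubb is Gm8797, a single-exon gene annotated as protein coding on chromosome 3 (ENSMUSG00000103034, chr3:5750806-5751295, plus strand, 490 bases). The second Ubb unit (chr11:62552374-62552601, plus strand, exon 2 of 2) and the matching stretch of Gm8797 (chr3:5750904-5751131, plus strand, exon 1 of 1) are shown here. The only change among the 6 genes that passed the test below, that of Ubb, did not pass once the counts of both genes were added. Capitals mark the 3 bases that differ (98.7% identity):
Ubb unit 2: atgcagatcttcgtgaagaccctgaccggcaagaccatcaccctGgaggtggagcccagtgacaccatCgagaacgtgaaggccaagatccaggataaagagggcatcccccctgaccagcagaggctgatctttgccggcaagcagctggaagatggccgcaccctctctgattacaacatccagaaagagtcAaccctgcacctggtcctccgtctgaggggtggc
Gm8797: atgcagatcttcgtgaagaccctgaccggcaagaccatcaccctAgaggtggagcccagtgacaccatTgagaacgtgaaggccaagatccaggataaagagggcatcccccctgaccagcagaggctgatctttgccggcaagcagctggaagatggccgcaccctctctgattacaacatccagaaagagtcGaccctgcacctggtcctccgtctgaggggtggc
Over the whole Ubb transcript, 66.7% of 31-base stretches also occurred in another annotated gene, 43.9% in Gm8797 and 65.9% in the pseudogene Gm1821, which held 0 counts. Ubb and Gm8797 share an identical run of 185 bases, of which 69 are coding in Ubb and 116 follow its stop codon. How the submitters' counting treated reads that match several genes is not stated in the labels.

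The libraries held between 169359 and 710868 gene counts each. Levels are given in CPM, the count relative to the size of the library, scaled with edgeR's TMM factors, and 3 counts correspond to 4.22 CPM in the deepest library and 17.7 CPM in the shallowest. Rpl3l, the deleted gene, was at 222 to 308 CPM in WT Input and 269 to 275 CPM in WT IP, against 27.0 to 68.6 CPM in Input and 2.33 to 8.31 CPM in IP of KO hearts, so the labels and the target match in all 12 libraries. Of 9 ventricular and general cardiomyocyte markers, 8 had counts and summed to 54310 to 64620 CPM in every library, while Actc1 was listed at 0 throughout. Globin genes took 1.7% to 17.2% of the counts without a pattern by group.

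The ligases were moderately abundant and Ubb more so. Summed over all libraries, Ubb had 4564 counts, Asb2 1859, Trim63 1749, Trim54 1062, Fbxo32 845 and Trim55 393. The 5 ligase genes together made up 1002 ± 90.7 CPM in WT Input, 1017 ± 27.0 CPM in KO Input, 1149 ± 50.6 CPM in WT IP and 1094 ± 61.0 CPM in KO IP (SD, n = 3 each). Compared per kilobase of the longest annotated transcript, the order in WT Input was Ubb at 707 ± 77.2 CPM per kb, Trim63 at 173 ± 14.5, Trim54 at 123 ± 11.1, Asb2 at 123 ± 23.8, Trim55 at 24.6 ± 8.27 and Fbxo32 at 15.1 ± 0.690 (SD, n = 3). Trim54 and Asb2 overlapped in their library ranges, as did Trim55 and Fbxo32, and the other neighbours did not. In the other 3 groups Trim63 and Trim54 overlapped as well, and in KO Input Fbxo32 ranked above Trim55. Per read, with no division by length, Asb2 ranked above Trim63 and Fbxo32 above Trim55 in all 4 groups, but Asb2 and Trim63 had overlapping ranges in every group except KO Input. The transcripts used are 6976 bases long for Fbxo32, 2690 for Asb2, 2595 for Trim55 and 1886 for Trim63. Reads from nanopore cDNA often stop before the transcript's far end, so both orders are given.

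**Figure D1:**
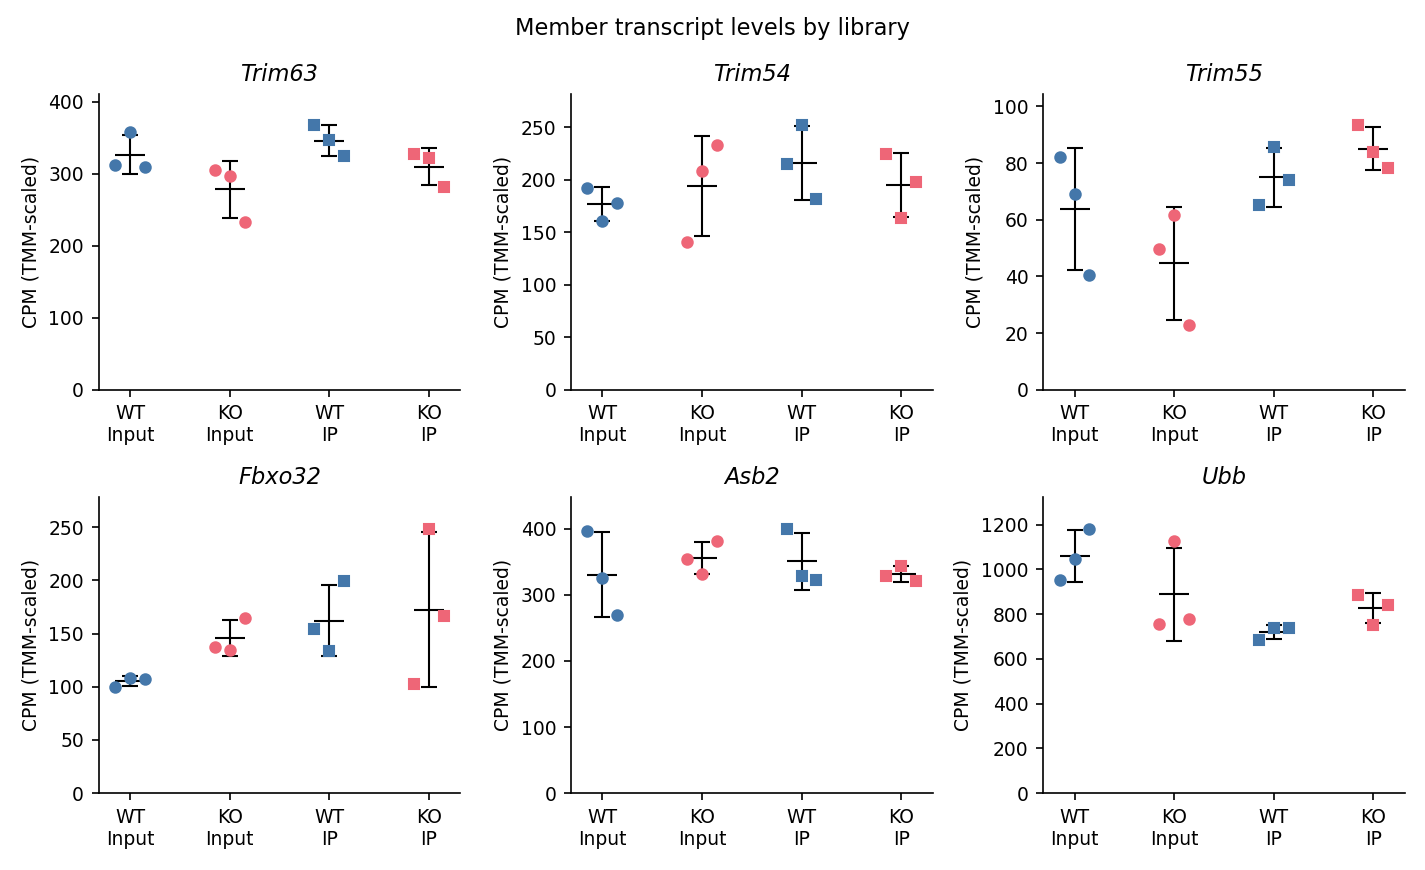
TMM-scaled CPM of each gene (y axes from 0, scales differ) in the 4 groups; points are libraries, circles Input and squares IP, blue WT and red KO, and bars give the mean and SD (n = 3). The Ubb panel shows WT Input at 952 to 1182 CPM above WT IP at 685 to 740 CPM, whereas the Trim63 and Asb2 panels show groups of like height.

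Whether loss of Rpl3l alters these transcripts in total heart RNA was read from KO and WT Input. None of the 6 genes passed edgeR's quasi-likelihood test with Benjamini-Hochberg adjustment, and their estimated KO to WT ratios ran from 0.717 (Trim55) to 1.37 (Fbxo32). Trim63, the MuRF1 gene, was at 312, 358 and 309 CPM in the WT Input libraries and at 305, 297 and 233 CPM in KO. Every KO library was below every WT library, by a mean log2 fold change of -0.22 (SE 0.17, 95% interval -0.57 to 0.14, edgeR adjusted p = 0.840). Fbxo32, the atrogin-1 gene, was at 99.7, 109 and 108 CPM in WT and at 137, 135 and 165 CPM in KO. Here every KO library was the higher, with a log2 fold change of 0.45 (SE 0.28, interval -0.13 to 1.03, edgeR adjusted p = 0.774). These 2 of 6 genes had ranges that did not overlap, 1 in each direction, where 12.4% of all tested genes had such ranges. The other 4 genes overlapped between genotypes. Trim54 was at 192, 160 and 178 CPM in WT and 141, 208 and 233 CPM in KO. Asb2 was at 396, 326 and 269 CPM in WT and 354, 331 and 381 CPM in KO. In both genes the KO libraries fell inside or across the WT range. Trim55 was the least certain, at 82.3, 69.1 and 40.3 CPM in WT and 49.5, 61.6 and 22.7 CPM in KO, the last resting on 4 counts in the shallowest library (log2 fold change -0.48, interval -1.19 to 0.23, edgeR adjusted p = 0.813). With 0 of 6 called, 0 of 6 at an unadjusted p under 0.05, and 0 of 6 called by DESeq2 or limma-voom, the genes stood beside a background of 0.182% of all genes called and 7.11% at an unadjusted p under 0.05. In bulk libraries, fewer cells of a type and less RNA per cell cannot be told apart.

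On ribosomes, too, no difference between the genotypes passed the test. In IP, 0 of 6 genes passed edgeR's test, 0 of 6 had an unadjusted p under 0.05, and DESeq2 and limma-voom called 0 of 6, where 0.091% of all genes were called and 5.2% had an unadjusted p under 0.05. The estimates ran from -0.16 for Trim63 to 0.20 for Ubb. The intervals still allow changes of moderate size. For Trim63 the 95% interval of the KO to WT ratio was 0.718 to 1.11, for Trim54 0.685 to 1.17, for Asb2 0.751 to 1.19 and for Trim55 0.784 to 1.64. Trim63 was at 367, 346 and 324 CPM in WT IP and 327, 322 and 281 CPM in KO IP, the lowest WT library lying just under the highest of KO. Trim54 was at 215, 252 and 181 CPM in WT IP and 224, 164 and 198 CPM in KO IP, with wide overlap. Asb2, at 400, 329 and 322 CPM in WT IP and 329, 344 and 321 CPM in KO IP, had the smallest SD relative to its mean in KO IP (11.8 of 331 CPM). Fbxo32 was the most scattered, at 103, 249 and 166 CPM in KO IP (SD 73.1 CPM) against 154, 134 and 199 CPM in WT IP. Without KO IP replicate 2, its log2 fold change went from 0.13 to -0.25, and without WT IP replicate 2 to -0.001. Ubb was the only gene whose ranges did not overlap, at 887, 754 and 843 CPM in KO IP and 685, 740 and 738 CPM in WT IP, where 10.8% of all genes had separate ranges. Its log2 fold change was 0.20 (SE 0.16, edgeR adjusted p = 0.985).

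The comparison of IP with Input asks how far each transcript is represented on ribosomes relative to total RNA. In WT hearts the 5 ligase genes did not pass the test, and Ubb fell in IP. Ubb was at 952, 1046 and 1182 CPM in WT Input and at 685, 740 and 738 CPM in WT IP. No IP library reached the lowest Input library, and the level in IP was 0.681 times that in Input (log2 fold change -0.55, SE 0.16, 95% interval -0.89 to -0.22, edgeR adjusted p = 0.0221). DESeq2 and limma-voom also called Ubb and none of the other 5 genes. This made 1 of 6 genes called, against 14% of all genes (8.67% lower and 5.37% higher), a count near the background. The call passed in 10 of 19 alternative analyses. It ended with library totals in place of TMM (adjusted p = 0.0665), without the count filter (0.0688), with the trend on transcript length removed (log2 fold change -0.33, adjusted p = 0.130), and without WT IP replicate 1, 2 or 3 or WT Input replicate 2 or 3 (0.0610 to 0.112), all from edgeR.

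Among the ligases, Fbxo32 came closest in WT. It was at 154, 134 and 199 CPM in WT IP against 99.7, 109 and 108 CPM in WT Input, with no overlap. The log2 fold change of 0.62 (SE 0.25, interval 0.11 to 1.14) had an edgeR adjusted p of 0.0991, which passed in 2 of 18 alternatives. With Ubb, it made 2 of 6 genes at an unadjusted p under 0.05, beside 27.8% of all genes. Ubb and Fbxo32 were the 2 of 6 genes with separate ranges here, where 34.6% of all genes had them. Trim55, at 65.1, 85.7 and 74.0 CPM in WT IP, lay across the range of WT Input. The log2 fold changes of Trim63 (0.08), Trim54 (0.29), Trim55 (0.20) and Asb2 (0.08) came with overlapping ranges and adjusted p of 0.354 to 0.803 (edgeR). The 95% intervals of Trim54 (-0.12 to 0.69) and Trim55 (-0.38 to 0.77) still allow changes of moderate size. In KO hearts 0 of 6 genes passed, where 16.4% of all genes did, and DESeq2 and limma-voom also called 0 of 6. Trim55 alone had an unadjusted p under 0.05, as did 29.4% of all genes. It was at 93.3, 83.7 and 78.1 CPM in KO IP against 49.5, 61.6 and 22.7 CPM in KO Input. All of its IP libraries were above all of its Input libraries (30.8% of all genes had separate ranges), with a log2 fold change of 0.86 (SE 0.32, edgeR adjusted p = 0.0704). It passed with library totals or without the count filter. Trim63 (0.14), Trim54 (0.02), Fbxo32 (0.29) and Asb2 (-0.10) overlapped between fractions, with edgeR adjusted p of 0.479 to 0.973. Ubb in KO was at 758, 1129 and 779 CPM in Input and overlapped IP (log2 fold change -0.11, SE 0.16, edgeR adjusted p = 0.719). The IP to Input ratio was not shown to differ between genotypes for any of the 6 genes. The edgeR interaction called 0 of 6, with 0 of 6 at an unadjusted p under 0.05, DESeq2 called 0 of 6, and limma-voom called 0 of 6 with 1 at an unadjusted p under 0.05, where edgeR called 0.091% of all genes and 7.02% had an unadjusted p under 0.05. For Ubb the log2 ratio of IP over Input in KO less that in WT was 0.45 (SE 0.23, interval -0.03 to 0.92, edgeR adjusted p = 0.744). The summed atrial markers (6842 to 12000 CPM in Input, 362 to 1159 CPM in IP) moved with fraction in both genotypes, as did 6 adipocyte markers (128 to 548 and 13.7 to 54.6 CPM) and 7 endothelial markers (2264 to 3534 and 1574 to 2145 CPM). The skeletal muscle markers also had separate ranges in each genotype, nearly all of it Myh8 (858 to 1540 CPM in Input, 385 to 1148 CPM in IP), the other 9 summing to 15.2 to 69.8 CPM. Their part in the Ubb and Fbxo32 values was not tested.

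**Figure D2:**
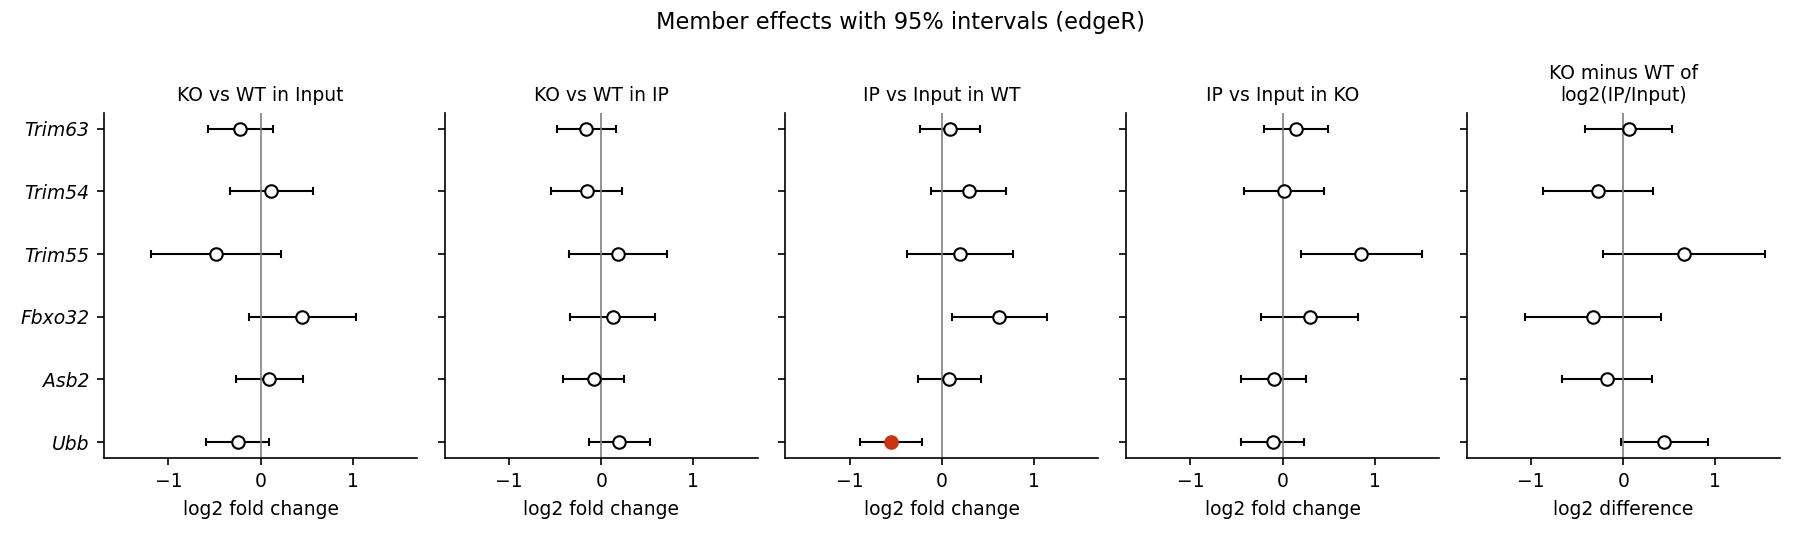
Log2 fold changes (x axes) with 95% intervals from edgeR for the 6 genes (rows) in 4 comparisons, and in the last panel the log2 ratio of IP over Input in KO less that in WT; the filled red point has an adjusted p under 0.05. The Ubb point at -0.55 in WT hearts is the only filled one, and the Trim55 intervals are the widest, as its 393 counts were the fewest.

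Gm8797, the gene that shares much of the Ubb sequence, moved the other way. Gm8797 was at 170, 168 and 151 CPM in WT Input and at 428, 490 and 387 CPM in WT IP, while KO hearts had 240, 208 and 216 CPM in Input and 455, 410 and 459 CPM in IP. No IP library overlapped an Input library in either genotype. Gm8797 rose in IP by a log2 fold change of 1.41 in WT (SE 0.17, edgeR adjusted p = 1.02e-06) and 0.99 in KO (SE 0.17, edgeR adjusted p = 0.000181), and passed in 18 of 18 alternatives in each genotype. Of the counts given to Ubb or Gm8797 together, Gm8797 held 13.5% in WT Input (181 of 1339, exact 95% interval 11.7% to 15.5%) and 37.7% in WT IP (795 of 2109, 35.6% to 39.8%). In KO the share went from 19.8% in Input (155 of 784, 17.0% to 22.7%) to 34.9% in IP (784 of 2247, 32.9% to 36.9%). These intervals are of pooled libraries and cover counting error only. Single libraries ran from 11.3% to 24.1% in Input and from 33.9% to 39.8% in IP, so the fractions were separate in every library.

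When the counts of Ubb and Gm8797 were added up before the fit, an alternative chosen after the values were seen, the Ubb call ended. The sum was 1223 ± 106 CPM in WT Input, 1156 ± 64.4 CPM in WT IP, and in KO 1110 ± 197 CPM in Input and 1269 ± 93.8 CPM in IP (SD, n = 3 each). The log2 fold change of IP over Input was -0.08 in WT (edgeR adjusted p = 0.789) and 0.19 in KO (edgeR adjusted p = 0.448). The only call among the 6 genes therefore holds for reads assigned to Ubb as deposited, and not for reads assigned to either gene. Whether the Gm8797 counts come from transcripts of that gene or from Ubb was not tested.

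**Figure D3:**
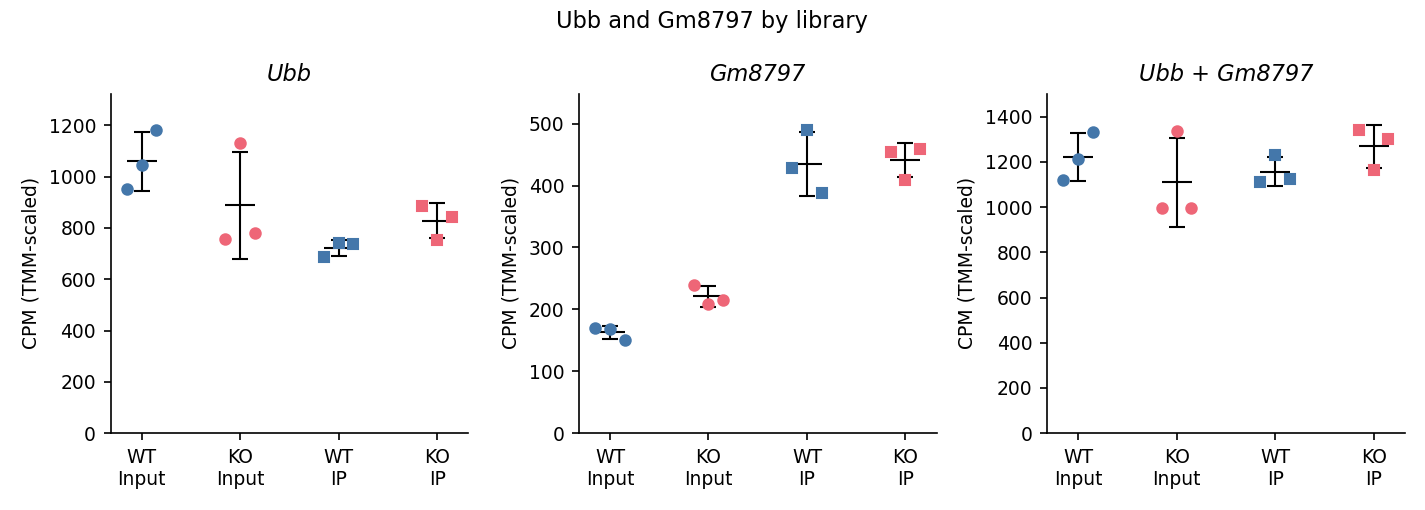
TMM-scaled CPM (y axes from 0, scales differ) of Ubb, Gm8797 and their summed counts by library, with mean and SD (n = 3); circles are Input, squares IP, blue WT and red KO. Ubb is lower and Gm8797 higher in WT IP than in WT Input, and their sum lies between 994 and 1342 CPM in all groups.

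Rps27a, the ubiquitin fusion gene, was lower in IP than in Input, where the Ubb and Gm8797 sum was not shown to differ. It stood at 167, 222 and 181 CPM in WT Input and 111, 111 and 148 CPM in WT IP, and KO hearts had 209, 231 and 199 CPM in Input and 156, 122 and 116 CPM in IP. The ranges were separate in both genotypes. Rps27a fell in WT (log2 fold change -0.63, SE 0.19, edgeR adjusted p = 0.0294) and in KO (-0.72, SE 0.20, edgeR adjusted p = 0.0149). The calls held in 10 of 18 alternatives in WT and in 12 of 18 in KO, and with the trend on transcript length removed the differences were -0.16 and -0.21. Between KO and WT, Rps27a passed in no comparison, with log2 fold changes of 0.17 in Input and 0.08 in IP. Of its 31-base stretches, 75.2% occur in other annotated genes (23 in all), and 53.9% in the pseudogene Gm8430, which held 0 counts.

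The other genes of the pathway were taken from 6 lists, and edgeR called 0 of their 121 tested genes between KO and WT, in Input, in IP and in the interaction. Of 24 tested among 35 listed ligases and substrate receptors of muscle, 2 had an unadjusted p under 0.05 in Input and 1 in IP. The shares over all tested genes were 7.11% and 5.2%, so these counts were near the background. The smallest p values in Input belonged to Asb14, another SOCS-box receptor (93.8 ± 17.4 CPM in WT and 47.8 ± 23.0 in KO, SD, n = 3, edgeR adjusted p = 0.562), and in IP to the ligase Rnf115 (41.4 ± 4.17 and 25.3 ± 7.20 CPM, adjusted p = 0.920). Among 18 tested substrates and binding partners of 21 listed, Sqstm1, which encodes the autophagy receptor p62, was at 286 to 417 CPM in WT Input and 188 to 270 CPM in KO Input, without overlap (log2 fold change -0.65, edgeR adjusted p = 0.388). Myom2, an M-band protein gene, was at 324 to 342 CPM in WT IP and 495 to 589 CPM in KO IP, also without overlap (0.68, edgeR adjusted p = 0.143). Sqstm1 and Myom2 were picked for the smallest p of their list. Of all tested genes, 12.4% had separate ranges in Input and 10.8% in IP. Myom2 passed in IP with DESeq2 (adjusted p = 0.0417) and with edgeR without the count filter (0.0397), and the latter also called its interaction (log2 value 1.03, adjusted p = 0.0345). The adaptor gene Eloc, which joins SOCS-box proteins such as the Asb2 product to cullin 5, was at 139 to 189 CPM in WT IP and 98.1 to 120 CPM in KO IP (-0.53, edgeR adjusted p = 0.826).

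Between IP and Input, edgeR called genes of these lists in both directions. In WT, 15 of the 121 tested genes were called (12.4%, 11 higher and 4 lower), near the 14% of all genes, and in KO 27 were called (22.3%, 16 higher and 11 lower), beside 16.4% of all genes. Among the 24 ligases and receptors, 3 were higher and 2 lower in IP in WT, and 3 higher and 2 lower in KO, with list medians of 0.22 and 0.27 beside 0.02 and 0.01 over all tested genes. In KO, 6.64% of all genes were higher and 9.78% lower in IP. Trim72, the muscle ligase and membrane-repair protein MG53, rose from 289 ± 41.1 to 649 ± 123 CPM in WT and from 304 ± 48.2 to 683 ± 93.0 CPM in KO (SD, n = 3, log2 fold change 1.16 in each, edgeR adjusted p = 4.66e-05 and 8.62e-05). Fbxo40, a muscle F-box gene, rose in both (0.95 and 1.31), and Rnf207, a cardiac RING-finger gene, fell in both (-0.89 and -1.64). The receptor gene Asb11 rose in WT (0.65), and Fbxl22, a cardiac F-box gene, fell in KO (-0.64). These last 6 calls had edgeR adjusted p between 0.000274 and 0.0450, and Trim72 passed in 18 of 18 alternatives in each genotype, where Rnf207 in WT passed in 6 of 18. At most 4 calls were named per list and genotype. Asb11 in KO was also higher in IP (108 to 141 CPM in Input, 183.1 to 199.5 CPM in IP). Fbxl22 in WT was also lower in IP (184.5 to 245.2 CPM in Input, 139 to 178 CPM in IP).

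All 13 cullin-RING scaffold and adaptor genes were tested, and their IP to Input medians were -0.07 in WT and -0.24 in KO. Cul3, the scaffold for BTB-domain receptors, rose in WT (0.72, edgeR adjusted p = 0.0390) and KO (0.83, adjusted p = 0.0282), while Eloc (-0.82) and Nedd8, the ubiquitin-like activator of cullins (-0.75), fell in KO. Nedd8 in WT was also lower in IP (192 to 218 CPM in Input, 134 to 170 CPM in IP), while Eloc overlapped there. Skp1, Cul1 and Cul5, the partners of the Fbxo32 and Asb2 products, did not pass. Of 24 tested E1 and E2 genes of 28 listed, 1 was higher in WT (Ube2z, 1.16), and in KO 1 was higher (Ube2h, 0.92) and 1 lower (Ube2d3, -0.98). Ube2z in KO was also higher in IP (42.4 to 49.5 CPM in Input, 54.9 to 108 CPM in IP). Ube2d3 in WT was also lower in IP (292 to 394 CPM in Input, 194 to 274 CPM in IP), while Ube2h overlapped there. Of 26 tested deubiquitinase genes of 28 listed, 3 were higher in WT and 3 higher and 2 lower in KO. For this and the other lists, the share called over all tested genes was 14% in WT and 16.4% in KO. Usp2 rose in both genotypes (0.87 and 0.85) and so did Usp13 (0.66 and 0.96).

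Among 16 tested regulators linked to the atrophy ligases of 17 listed, Srf, the serum response factor, rose in IP in WT (1.66, edgeR adjusted p = 0.000763) and KO (1.20, adjusted p = 0.0146). Foxo3, a FoxO factor known to drive Fbxo32 and Trim63 in wasting muscle, rose in KO (0.82, edgeR adjusted p = 0.0373). In WT its ranges overlapped between Input (47.0 to 102 CPM) and IP (88.0 to 135 CPM). Of the 18 substrates and partners, 2 were higher and 2 lower in WT, and 6 higher and 4 lower in KO. Of all tested genes, 14% were called in WT and 16.4% in KO. Nbr1, an autophagy receptor that binds titin and the MuRF2 protein, rose in both (1.13 and 1.42). Sqstm1 (1.06) and Ppp3ca (0.88) rose in KO, each with overlapping ranges in WT. Mybpc3, the cardiac myosin-binding protein gene, rose in WT from 1402 ± 60.5 to 3097 ± 522 CPM (SD, n = 3, log2 fold change 1.14, edgeR adjusted p = 3.15e-05). In KO, where at most 4 calls of this list were named, Mybpc3 was at 1719 ± 81.4 CPM in Input and 2561 ± 472 CPM in IP. Ckm, the muscle creatine kinase gene, whose product binds MuRF1, fell in both (-0.47 and -0.59). Eif3f, a translation factor gene whose product is a target of atrogin-1, fell in WT (-0.70). In KO, Eif3f was also lower in IP, at 172 ± 51.5 CPM in Input and 98.65 ± 11.8 CPM in IP. Across the lists, 10 of the 35 calls chosen for naming, those of Rps27a included, held in every alternative, among them Trim72 and Nbr1 in both genotypes, and the others passed in 6 to 17 of 18.

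**Figure D4:**
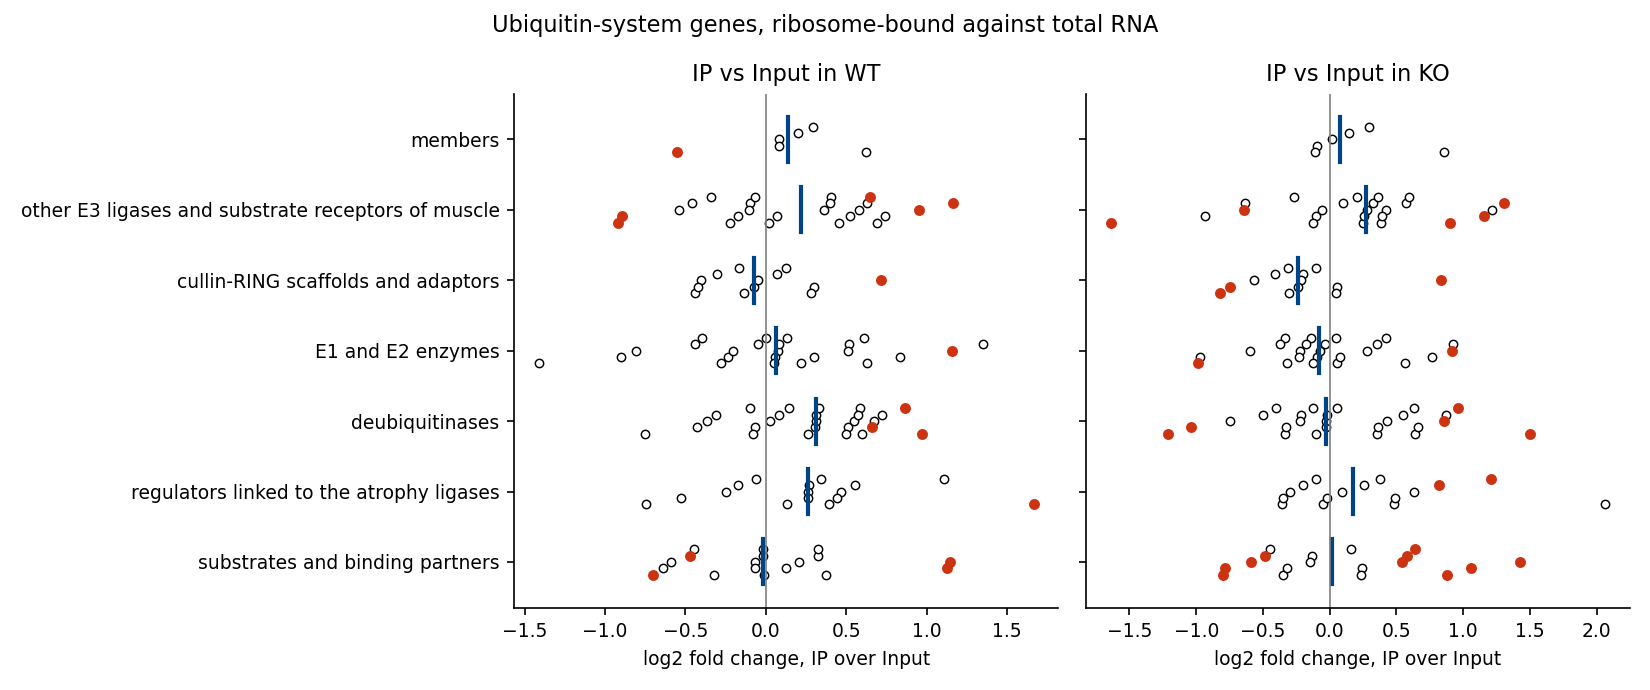
Log2 fold change of IP over Input (x axes) for the 6 genes and each tested gene of 6 lists (rows), in WT and KO hearts; filled red points have an edgeR adjusted p under 0.05, and blue bars are list medians. The members' row has medians of 0.14 in WT and 0.08 in KO. In WT, called genes lie on both sides of 0 only in the rows of other ligases and of substrates.

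Across the 12 libraries, the genes whose log2 CPM followed each of the 6 most closely were sought among 3028 tested genes with a mean of at least 50 CPM. The points share fraction, genotype and depth, and the coefficients (Pearson r) are descriptions. Trim55 had the closest match, with C1qbp at 0.929 and Mlf2 at 0.925, and Ube2h, an E2 gene, was next at 0.910. Ubb went with Psma7, a proteasome subunit gene (0.895), Rpl10-ps3 (0.881) and Arl2bp (0.865). Fbxo32 went with Rgs5 (0.894) and Armc1 (0.867), and Trim63 with Dcakd (0.878), Polr2m (0.874) and Pdrg1 (0.842). Trim54 (Itgb1bp2, 0.806) and Asb2 (Fez2, 0.786) had weaker best matches. None of the 6 genes was among the 3 closest matches of another, the MuRF genes included.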

How the data were processed

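Poly(A) RNA of ribosome pulldowns and of total heart RNA was sequenced as nanopore direct cDNA, per the labels' protocols. The deposited files hold 1 raw read count per gene and library. The submitters' processing notes name minimap2 2.14, DESeq2 1.34.0 and build GRCm38 without their roles. The counting tool, its use of strand and its treatment of reads that match several genes are not given in the sources used here.

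Of 55401 gene identifiers, 55141 matched GENCODE M21 (GRCm38) without their version, and names, coordinates, transcript lengths and sequences were taken from it. The test was edgeR (version 4.0.16, with limma 3.58.1, under R 4.3.3). The filter filterByExpr (minimum count 10, minimum total 15) kept 6596 genes, TMM factors were used, and the quasi-likelihood model had 1 mean per group over all 12 libraries. P values were adjusted over all tested genes within each of 5 comparisons, with a threshold of 0.05. The SE is the log2 fold change divided by the square root of F. The biological coefficient of variation was 18.2%. The model was tested on simulated data.

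Genes named from the lists are, per comparison, up to 4 called genes with the smallest p, or else the 1 with the smallest p. Gm8797 entered after its values had been seen. Some listed genes are not reported here. The 6 genes and all lists were chosen with earlier results of these data known. One listed symbol (Skp1) was matched through a RefSeq synonym. Shared sequence was counted over 31-base stretches of the longest coding transcript. Depth limits each value: 3 counts are 4.22 to 17.7 CPM. Alternatives were DESeq2 size factors and test (DESeq2 1.42.0), library totals, no filter or a stricter one (30 counts in 3 libraries), limma-voom, only the compared libraries, a replicate block, thinning to 169359 counts, globin genes left out, a length trend removed (loess span 0.5), each library left out, and, added after the data were seen, Ubb and Gm8797 counts summed. The replicate block was fitted over all groups and, for IP against Input and the interaction, also within genotype.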

Additional observations from a re-analysis of the deposited data

How the results depend on the processing

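The number of the 6 genes past the threshold was 0 between KO and WT, in Input, in IP and in the interaction, under every alternative run. For IP against Input in WT it went from 1 to 0 with library totals, with the length trend removed and with Ubb and Gm8797 counts summed, to 2 (Fbxo32 and Ubb) in a fit of only the libraries compared, and to between 0 and 1 with a library left out. In KO it went from 0 to 1 (Trim55) with library totals and without the count filter. Of 35 called list genes and comparisons, 10 held in every alternative. The values gave no sign that replicate numbers pair the libraries, which does not exclude shared hearts. Same-number correlations ran from -0.216 to 0.095, and a library matched its own number best in 7 of 36 cases. With the replicate block over all groups, 1 gene (Ubb) passed for IP against Input in WT and none in the other comparisons. All-gene counts then went from 926 to 858 in WT and from 1083 to 1009 in KO. With a block within genotype, Ubb again passed in WT (edgeR adjusted p = 0.0409) and none of the 6 passed in KO or the interaction. All-gene counts were then 785 in WT and 937 in KO.

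No sign change concerned a called value, and the cause was not tested. Between KO and WT in Input, with a library left out, Trim54 ran from -0.018 to 0.30 and Asb2 from -0.038 to 0.24 (log2 fold changes throughout). In IP, Asb2 was 0.030 with library totals and 0.089 with thinned libraries, Trim55 was -0.048 when thinned, and with a library left out Fbxo32 ran from -0.25 to 0.36 Asb2 from -0.13 to 0.020 and Rps27a from -0.049 to 0.23. For IP against Input in WT, Trim55 ran from -0.024 to 0.41 and Asb2 from -0.047 to 0.23 with a library left out. In KO, library totals gave 0.039 for Asb2 and 0.028 for Ubb, no filter 0.020 and 0.0060, thinning -0.23 for Trim54, 0.21 for Asb2 and 0.029 for Ubb, the stricter filter -0.014 for Trim54, length removal -0.074 for Fbxo32 and 0.097 for Ubb, and the sum 0.19 for Ubb. There, with a library left out, Trim54 ran from -0.18 to 0.15, Fbxo32 from -0.063 to 0.55 and Ubb from -0.21 to 0.11. In the interaction, Asb2 was 0.086 and Rps27a 0.13 when thinned, and with a library left out Trim63 ran from -0.043 to 0.13 and Rps27a from -0.22 to 0.062. With library totals the median over all tested genes shifted by 0.12 between KO and WT in IP and by 0.15 for IP against Input in KO.

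All-gene counts moved by more than 1.5 times without the count filter (12 to 77 in Input, 6 to 55 in IP, 6 to 37 in the interaction), with the stricter filter (12 to 5 in Input), with DESeq2 (6 to 10 in IP) and with limma-voom (6 to 1 in the interaction). Thinning, which left 3164 genes to test, gave 486 in WT, 647 in KO and 1 in the interaction. With a library left out, counts ran from 4 to 17 in Input (4 without WT Input replicate 1, 5 without KO Input replicate 3), from 2 to 7 in IP (2 without WT IP replicate 1, 3 when WT IP replicate 2 was dropped and 3 when KO IP replicate 3 was), from 601 (without WT Input replicate 1) to 686 in WT and from 1 to 8 in the interaction (1 without WT Input replicate 1, 3 without WT IP replicate 3).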
